A study of Sus scrofa with 21 samples.

Results

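Sertoli cells are the somatic cells that line the seminiferous tubule and nurse the germ cells, and 10 genes by which they are known were followed here in the testis of breeding boars. The genes were SOX9, AMH, FSHR, INHA, INHBB, CLDN11, GATA4, WT1, DHH and KITLG, chosen by symbol among the 25880 pig genes counted, and each symbol matched 1 gene. RNA was sequenced from whole testis of 21 purebred boars, 13 Norwegian Landrace and 8 Norwegian Duroc, all semen donors at artificial insemination stations whose testes were collected after slaughter. The boars had been selected for extreme sperm hyperactivity, the vigorous asymmetric tail beat that sperm acquire before fertilisation, either on the day of ejaculation (day 0) or as its change over 96 hours of liquid storage at 18 °C. No boar carried a transgene or received a treatment, and age at slaughter by group is not given in the sources used here.

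Among Landrace, 3 boars were low at day 0 (L1, L3, L4), 3 were high at day 0 (L5, L6, L8), 3 had a low change (L9, L10, L12) and 2 had a high change (L13, L15). Boar L2 was low in both measures and boar L7 high in both, so the day 0 comparison, termed contrast (i), set 4 high against 4 low boars, and the comparison of change, termed contrast (iii), set 3 high against 4 low boars, with L2 and L7 in each. Results of these contrasts therefore share samples. Among Duroc, contrast (ii) set 5 boars described as high (D1 to D5) against 3 described as low (D6, D7, D9). The published boar list places 7 of the 8 Duroc boars, matched by name, in the opposite group, and the deposited descriptions were followed, so the sign of every Duroc high and low difference rests on those descriptions.

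Sertoli cells support spermatogenesis under the control of follicle-stimulating hormone (FSH) from the pituitary. They answer with inhibin, which restrains FSH, and they seal the tubule with tight junctions that keep meiotic and haploid germ cells apart from the blood. SOX9, WT1 and GATA4 are transcription factors that set and keep Sertoli identity. AMH, DHH and KITLG are signals that Sertoli cells send to the reproductive ducts, to Leydig and peritubular cells and to spermatogonia.

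Values are given in CPM, the usual library-scaled unit of RNA sequencing, which gives the reads of a gene relative to all reads counted to genes in that library after TMM scaling, a correction for differences in library composition. Gene counts per library ranged from 41358671 to 125576407, with a median of 64052547 in Landrace and 55270489 in Duroc. One Landrace boar of the high change group, L13, stood apart: it was the highest of all 21 boars for 7 of the 9 detected genes, and the results that rest on it are given below with and without it. CPM depends on the length of a transcript, so levels are compared between boars and not between genes. In RNA from whole testis, fewer Sertoli cells and less RNA in each of them cannot be told apart.

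AMH, which encodes anti-Müllerian hormone, the signal that removes the female ducts in the male fetus, had 0 counts in all 21 libraries. A count of 0 allows up to 3 counts in a library, or 0.0239 to 0.0725 CPM depending on depth. This limit covers counting error only and holds only if reads of AMH could be counted to its gene model, which was not tested. Of all genes in the files, 14.4% were likewise at 0 in every library. AMH is annotated on chromosome 2 (76415564 to 76418315, Sscrofa11.1), and it was left out of every test, so 9 of the 10 genes were tested in each comparison. Among the other genes listed for Sertoli cells, the claudin CLDN3 also had 0 counts in every library. The germ line of the adult testis was present in every boar, with the protamine PRM1 at 465 to 2310 CPM.

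The transcription factors were detected in every boar. SOX9, the factor that starts Sertoli differentiation, lies on chromosome 12 (8642154 to 8647315) and was carried by 1332 to 6180 counts per library. Its level was 39.9 ± 11.4 CPM (SD, n = 13) in Landrace and 36.2 ± 7.28 CPM (SD, n = 8) in Duroc. WT1, on chromosome 2 (28411467 to 28456007), had the smallest relative spread of the 9 genes, with a coefficient of variation of 11.9% over the 21 boars and a range of 20.6 to 30.2 CPM. GATA4, on chromosome 14 (14858470 to 14938156), varied more, from 7.45 CPM in L8 to 28.1 CPM in D5, with a coefficient of variation of 35.3%.

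FSHR, the FSH receptor that Sertoli cells alone in the testis are known to carry, spans 91607236 to 91775255 of chromosome 3 and had the largest relative spread, with a coefficient of variation of 39.8%. Its level ran from 14.9 CPM in D5 to 63.4 CPM in L13. This spread leaned on L13, as the other 20 boars reached at most 33.5 CPM, in L8. Among the Duroc boars alone, a set without L13, the coefficient of variation of FSHR was 26.1%, below the 39.9% of DHH. The inhibin subunits were INHA, the alpha subunit found only in inhibins (chromosome 15, 121581847 to 121586020), and INHBB, the beta B subunit that also makes activin B (chromosome 15, 30999994 to 31004405). INHA ranged from 2.34 to 6.13 CPM and INHBB from 6.41 to 20.3 CPM. INHA was thus counted at 157 to 516 reads per library, and DHH at only 52 to 240, which makes these the least precise of the detected genes.

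CLDN11, a claudin of the tight junctions between Sertoli cells (chromosome 13, 109075672 to 109089097), ranged from 93.8 to 173 CPM in 20 boars and was 311 CPM in L13. Among the secreted signals, DHH, desert hedgehog (chromosome 5, 15114524 to 15119610), ranged from 0.728 CPM in D3 to 2.83 CPM in L13. KITLG, the ligand of the KIT receptor of spermatogonia (chromosome 5, 94016992 to 94110219), ranged from 26.1 CPM in L3 to 77.2 CPM in L13. The plot of levels by group shows that for most of these genes the boars of different groups lay within the same range.

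**Figure D1:**
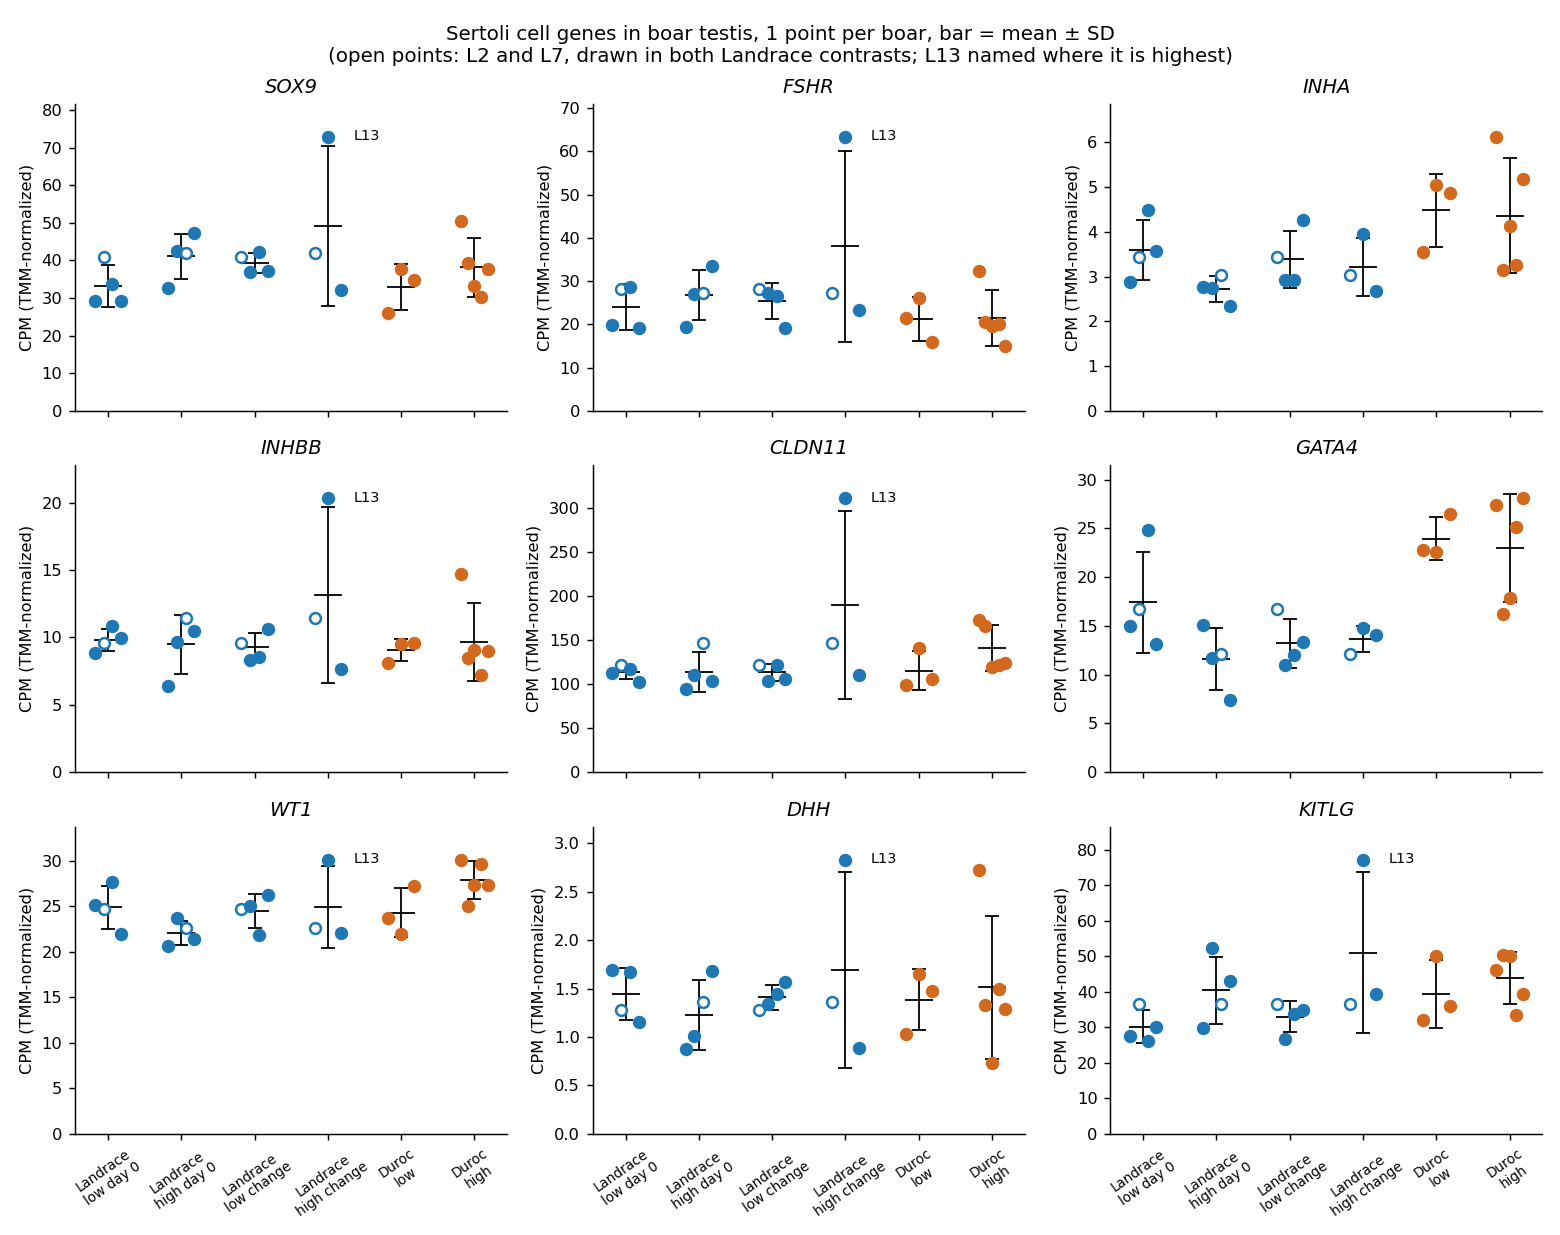
TMM-normalized CPM of the 9 detected Sertoli cell genes, 1 point per boar, in the 4 Landrace and 2 Duroc groups, with black bars for the mean and SD of each group. Open points are L2 and L7, drawn in both Landrace contrasts, and L13 is named where it was the highest boar, as for CLDN11 at 311 CPM, while the Duroc boars lie toward the top of the GATA4 panel.

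The clearest difference was between the breeds, in GATA4, a zinc finger factor that in the testis acts in Sertoli and Leydig cells. GATA4 was higher in Duroc, where the lowest, median and highest boars had 16.2, 24.0 and 28.1 CPM, than in Landrace, where they had 7.45, 13.3 and 24.8 CPM. All 8 Duroc boars lay above the Landrace median and 4 of them above every Landrace boar, so the breeds overlapped, mainly through L3, whose 24.8 CPM was well above the other Landrace boars. Its log2 fold change of Duroc over Landrace was 0.74 ± 0.16 (SE, 95% confidence interval 0.42 to 1.06), a 1.67-fold difference, with an adjusted p of 0.00692 by edgeR's quasi-likelihood test over 13126 genes. An exact two-sided permutation test of the mean log2 CPM gave p = 0.000157. GATA4 stood at place 140 by p-value among all genes tested.

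The GATA4 difference kept an adjusted p under 0.05 by edgeR in all 21 fits that left out 1 boar, with log2 fold changes from 0.69 (without L8) to 0.84 (without L3). It was also past that threshold by DESeq2 (adjusted p = 0.000232) and among the 16 boars selected at day 0 with the high or low group as a covariate (0.77, edgeR adjusted p = 0.0399). Within the low day 0 boars alone, 3 Duroc against 4 Landrace, the log2 fold change was 0.51 with an edgeR adjusted p of 0.253. Within the high day 0 boars alone, 5 against 4, it was 0.99 with an edgeR adjusted p of 0.187. Both had the direction of the whole set and neither passed, and the choice to split the boars this way was made after the data had been seen. The covariate and both splits took the Duroc groups from the deposited descriptions.

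INHA was next among these genes. The lowest, median and highest Duroc boars had 3.15, 4.49 and 6.13 CPM, and the Landrace boars 2.34, 2.93 and 4.50 CPM. Again all 8 Duroc boars lay above the Landrace median and 4 above every Landrace boar. Duroc over Landrace gave a log2 fold change of 0.45 ± 0.15 (SE, 95% confidence interval 0.13 to 0.77). Its unadjusted p in edgeR was 0.00791 and its adjusted p was 0.14, so it did not pass over all genes, although the exact permutation test of INHA alone gave p = 0.00607.

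Of the 9 Sertoli genes tested between the breeds, 1 passed as higher in Duroc and 0 as lower, against 1.35% higher and 1.53% lower among all genes tested by edgeR. An unadjusted p under 0.05 was reached by 2 of the 9, against 12.3% of all genes. The groups of no Sertoli gene were free of overlap, which held for 0.297% of all genes. The log2 fold change was positive for 6 of 9, with a median of 0.04, beside −0.01 for all genes. FSHR was −0.39 ± 0.19 (SE, adjusted p = 0.44 by edgeR), with a Landrace median of 27.1 CPM and a Duroc median of 20.3 CPM. SOX9, INHBB, CLDN11, WT1, DHH and KITLG lay between −0.14 and 0.15, with 95% confidence intervals that all included 0. Without L13, 7 of 9 were positive with a median of 0.16, and 4 of 9 reached an unadjusted p under 0.05, beside 14.2% of all genes in that fit.

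**Figure D2:**
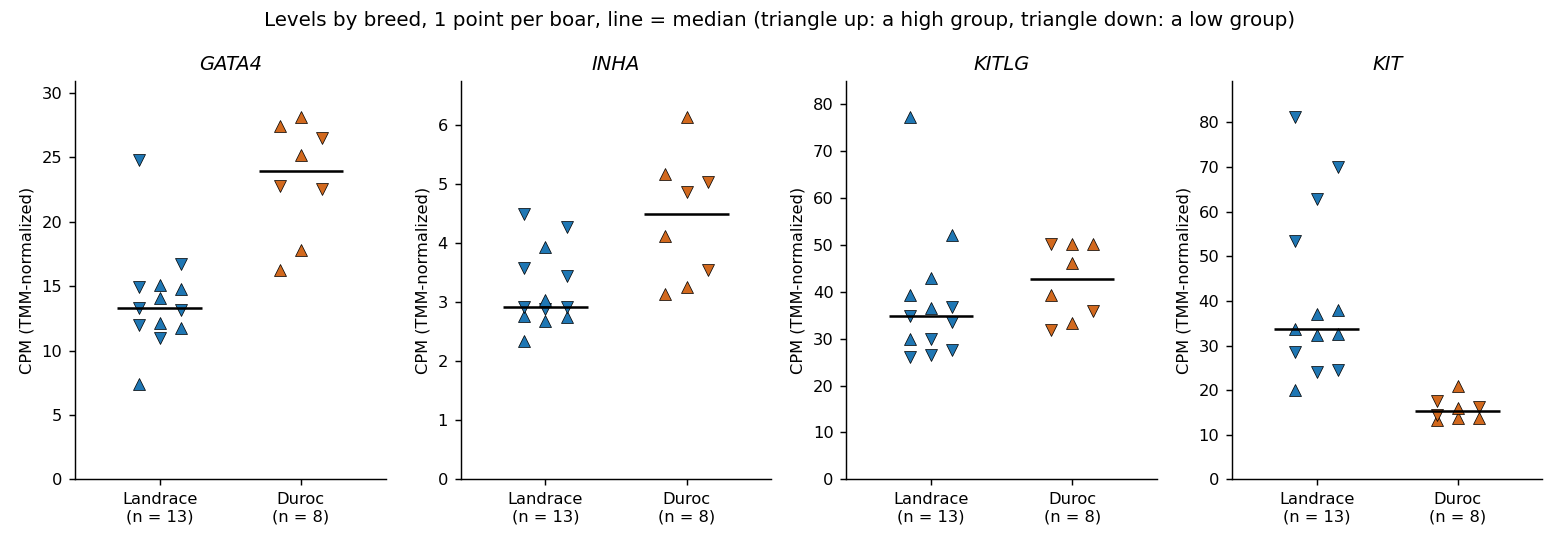
TMM-normalized CPM of GATA4, INHA, KITLG and the KIT receptor in 13 Landrace and 8 Duroc boars, 1 point per boar, with a line at the median; triangles up are boars of a high group and triangles down boars of a low group. The Duroc median of GATA4 (24.0 CPM) lies above 12 of the 13 Landrace boars, whereas for KIT all Duroc boars but 1 lie below the lowest Landrace boar.

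The receptor of KITLG differed between the breeds while the ligand did not pass. KIT, the receptor tyrosine kinase by which differentiating spermatogonia answer KITLG and which Leydig cells also carry, ranged from 13.2 to 20.8 CPM in Duroc and from 20.1 to 81.1 CPM in Landrace. Only D1, at 20.8 CPM, overlapped the Landrace range, above L5 at 20.1 CPM. Duroc over Landrace gave a log2 fold change of −1.40 ± 0.23 (SE), with an adjusted p of 0.000678 by edgeR, which passed in all 21 fits that left out 1 boar. The exact permutation p was 5.41e-05. KITLG itself had medians of 42.8 CPM in Duroc and 34.9 CPM in Landrace and a log2 fold change of 0.15 ± 0.17 (SE, adjusted p = 0.955 by edgeR).

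KIT was the 1 of 11 tested receptors and partners of the Sertoli signals that passed between the breeds, with 0 higher. It is also on the list of 4 tested spermatogonia markers, of which 0 were higher and only KIT was lower. The summed level of the 5 matched spermatogonia markers, these 4 and GFRA1, which was too low to be tested, ranged from 26.3 to 43.8 CPM in Duroc and from 32.3 to 95.0 CPM in Landrace. KIT is itself one of the summed genes, with means of 15.7 CPM in Duroc and 41.4 CPM in Landrace. The other markers had no lower mean in Duroc. Their Duroc and Landrace means were 2.58 and 2.53 CPM (UCHL1), 11.2 and 10.6 CPM (ZBTB16), and 2.28 and 1.83 CPM (STRA8). GFRA1 had 0.938 and 0.568 CPM. The log2 fold change was positive for 3 of the 4 tested. The part of spermatogonia in the KIT difference was not tested. Of 5 Leydig cell markers, a cell type that also uses GATA4, 0 passed between breeds, with a median log2 fold change of 0.08 and summed levels of 1140 to 3443 CPM in Duroc and 459 to 4456 CPM in Landrace. Of 5 peritubular, 3 endothelial and 2 macrophage markers tested, 0 passed either.

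**Figure D3:**
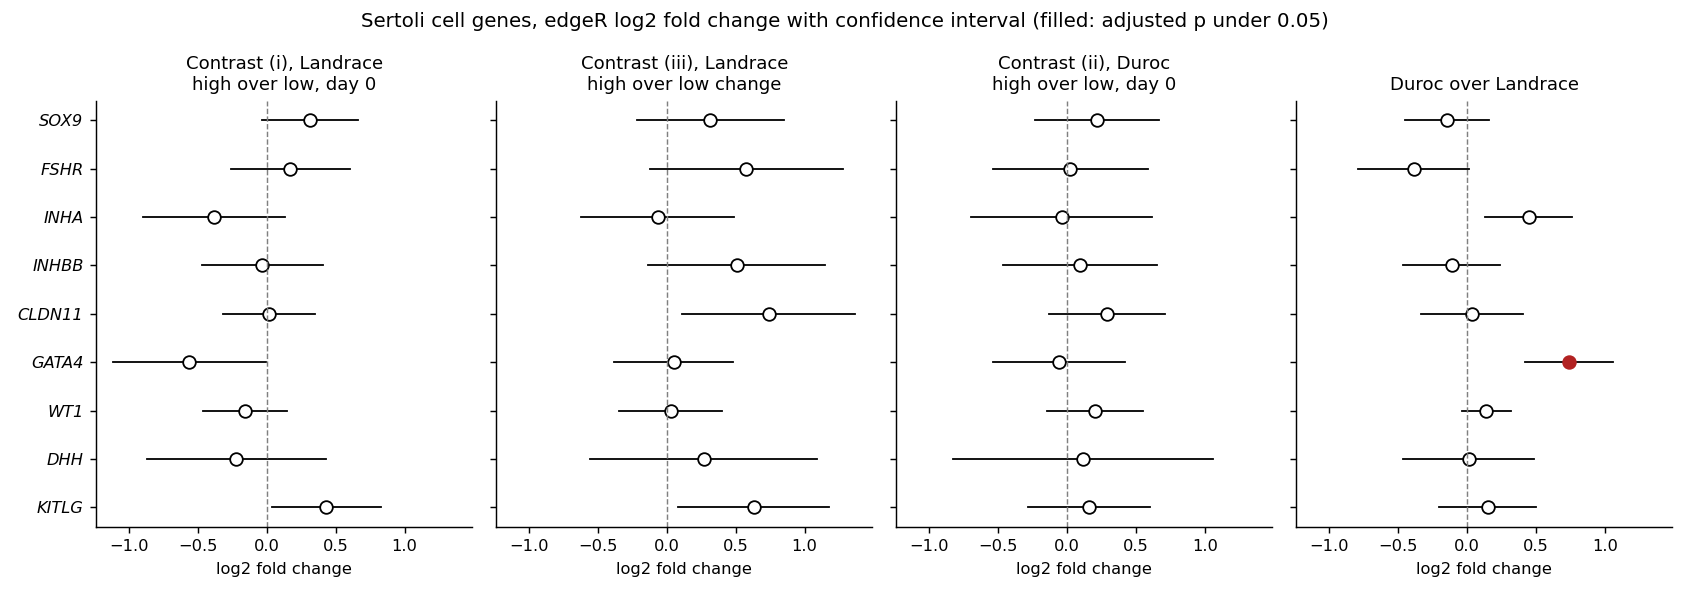
Log2 fold change from edgeR with its 95% confidence interval for 9 Sertoli cell genes (rows) in contrast (i), contrast (iii), contrast (ii) and Duroc over Landrace (panels); a filled red point marks an adjusted p under 0.05. Only GATA4 in the breed panel, at 0.74, is filled, and the intervals of KITLG and CLDN11 in contrast (iii) lie above 0 without passing over all genes.

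Contrast (i) asked which testis transcripts differ between Landrace boars of high and low hyperactivity at day 0. Of the 9 Sertoli genes, 0 passed in either direction by edgeR, against 4.82% of 12979 genes higher and 15.8% lower in the high boars. The likelihood ratio test of edgeR and DESeq2 also called 0 of the 9. An unadjusted p under 0.05 was reached by 2 of 9, against 41.7% of all genes. Groups that did not overlap were found for 0 of 9, against 28.3% of all genes. The log2 fold change was positive for 4 of 9 and the median was −0.03, beside 0.03 for all genes. Over all genes the share of calls that were lower was 76.7% by edgeR and 62.8% by DESeq2.

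KITLG and GATA4 had the smallest p-values of contrast (i) and lay in opposite directions. KITLG had 29.9, 52.2, 36.4 and 43.0 CPM in the high boars L5, L6, L7 and L8, and 27.6, 36.6, 26.1 and 29.9 CPM in the low boars L1, L2, L3 and L4. L6 and L8 were above every low boar, and L5 and L7 within the low range. The fitted log2 fold change was 0.43 ± 0.18 (SE, 95% confidence interval 0.03 to 0.83), with an unadjusted p of 0.0359 and an adjusted p of 0.0979 by edgeR. Without L5 it was 0.57 and passed (edgeR adjusted p = 0.036).

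GATA4 had 15.1, 11.8, 12.1 and 7.45 CPM in the same order of high boars and 14.9, 16.7, 24.8 and 13.2 CPM in the low boars. L3 was the highest and L8 the lowest of the 8, and L5 alone among the high boars lay inside the low range. In the fit GATA4 had a log2 fold change of −0.56 ± 0.25 (SE, 95% confidence interval −1.12 to −0.01) with an edgeR adjusted p of 0.115. The exact permutation p was 0.0857 for GATA4 and 0.143 for KITLG, where 4 against 4 boars allow no p below 0.0286.

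The other Sertoli genes of contrast (i) had wide intervals around 0. INHA was 2.72 ± 0.288 CPM (SD, n = 4) in the high and 3.60 ± 0.671 CPM (SD, n = 4) in the low boars, a log2 fold change of −0.39 ± 0.24 (SE, edgeR adjusted p = 0.222). SOX9 was 41.1 ± 6.04 CPM in the high and 33.3 ± 5.56 CPM in the low boars (SD, n = 4 each), a log2 fold change of 0.31 ± 0.16 (SE, edgeR adjusted p = 0.155). FSHR, INHBB, CLDN11, WT1 and DHH lay between −0.22 and 0.17.

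The hedgehog pathway gave a call of contrast (i) that lies close to a Sertoli signal. DHH binds the receptor PTCH1, which then releases the transducer Smoothened in Leydig and peritubular cells. SMO, which encodes Smoothened, had 0.509, 0.715, 0.722 and 0.184 CPM in the high boars L5 to L8 and 1.16, 1.53, 1.96 and 1.26 CPM in the low boars L1 to L4. Every low boar was above every high boar. SMO was tested only because the 4 low boars, and no high boar, reached 1 CPM, and 4 such libraries were required. With overlap at that level it would not have been tested, so the separation and the call are not independent of the filter. Its log2 fold change was −1.45 ± 0.41 (SE, edgeR adjusted p = 0.0335).

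This call rested on single boars. SMO no longer passed without L6 (edgeR adjusted p = 0.0565) and was too low to be tested in 4 of the 8 fits that left out 1 boar. The count of all genes called fell to 1 without L3 and to 1 without L6. DHH itself did not differ beyond its error, at −0.22 ± 0.30 (SE, edgeR adjusted p = 0.583). PTCH1 had −0.49 and HHIP, a decoy for hedgehog ligands, −0.35, neither of which passed; they are named after their values were seen. Of the 11 tested receptors and partners, 0 rose.

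Peritubular cells are a hedgehog target. Of 5 peritubular markers tested in contrast (i), 2 were lower in the high boars, 0 were higher and 3 did not pass, beside 15.8% of all genes lower and 4.82% higher. The median log2 fold change of the 5 was −0.98, beside 0.03 for all genes. Those that passed were DES (log2 fold change −1.50, edgeR adjusted p = 0.0255), the muscle filament desmin, and MYH11 (−1.17, edgeR adjusted p = 0.0392), smooth muscle myosin. DES failed without L3 and without L6, and MYH11 without any of L1, L2, L3, L5, L6 and L8. The summed level of the 6 peritubular markers ranged from 84.5 to 138 CPM in the high and from 113 to 216 CPM in the low boars. Leydig cell markers, of which 0 of 5 passed, summed to 459 to 4456 CPM in the high and 1668 to 2121 CPM in the low boars. The part of either in the SMO values was not tested.

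Among 18 other tested genes of Sertoli cells, contrast (i) called 1 higher and 1 lower, which is near the shares of all genes, 4.82% higher and 15.8% lower, so the counts show nothing particular to these genes. DEFB119, a beta-defensin, was higher in the high boars (log2 fold change 0.65 ± 0.21, SE, edgeR adjusted p = 0.0455). ESPN, which encodes the actin-bundling protein espin of the junctions between Sertoli cells and spermatids, was lower (−1.08 ± 0.25, SE, edgeR adjusted p = 0.021). ESPN passed in 6 of the 8 fits that left out 1 boar, failing without L3 and without L6, and DEFB119 in 2 of 8, failing without any of L1, L2, L3, L4, L6 and L8. Of 6 tested genes of the FSH response, 0 were higher and 1 was lower, again near those shares, ADCY9, an adenylyl cyclase (−0.63, edgeR adjusted p = 0.0434), which passed in 2 of 8 such fits and failed without any of those same boars. Likewise 1 of 6 spermatid markers, the protamine PRM1, was lower (−0.70, edgeR adjusted p = 0.0338), but not without any of L1, L3, L6 and L8, and 0 of the Leydig, endothelial, macrophage, spermatogonia and spermatocyte markers passed.

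Contrast (iii) compared Landrace boars by the change in hyperactivity over storage. Of the 9 Sertoli genes, 0 passed by edgeR, as for all 12824 genes, of which 0% were called higher and 0% lower. By the likelihood ratio test and by DESeq2, which called 64 and 116 of all genes, the Sertoli genes called were also 0. An unadjusted p under 0.05 was reached by 2 of 9, against 19.8% of all genes, and groups did not overlap for 0 of 9, against 16.2%. The log2 fold change was positive for 8 of 9 with a median of 0.32, beside 0.00 for all genes.

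Most of that shift came with L13. CLDN11 had 147, 311 and 111 CPM in the high change boars L7, L13 and L15, and 122, 104, 122 and 105 CPM in the low change boars L2, L9, L10 and L12. L13 and L7 were above every low boar and L15 was within their range. CLDN11 had a log2 fold change of 0.74 ± 0.28 (SE, edgeR adjusted p = 0.24), and without L13 it was 0.21. KITLG had 36.4, 77.2 and 39.4 CPM in the high boars and 36.6, 26.6, 33.6 and 34.9 CPM in the low boars. Its log2 fold change of 0.63 ± 0.25 (SE, edgeR adjusted p = 0.24) became 0.22 without L13.

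Without L13, 5 of the 9 Sertoli genes were positive with a median of 0.0072, and 0 reached an unadjusted p under 0.05, beside 8.04% of all genes in that fit. FSHR moved from 0.58 to 0.02, INHBB from 0.50 to 0.07 and SOX9 from 0.32 to −0.06 when L13 was left out. INHA (−0.07), GATA4 (0.05) and WT1 (0.03) were close to 0 with it. None of the other lists had a gene that passed. Among the 18 other Sertoli genes the smallest p-values were those of ESPN (−0.75) and DEFB119 (0.68), both with an edgeR adjusted p of 0.24, and KIT, among the receptors and partners, had −0.79 (edgeR adjusted p = 0.245).

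The profile of L13 reached beyond the 9 genes. Relative to the median of the other 20 boars, L13 had 2.84 times the FSHR, 2.71 times the CLDN11, 2.19 times the INHBB, 2.14 times the KITLG, 2.10 times the DHH, 1.97 times the SOX9 and 1.21 times the WT1. GATA4 (0.942 times, place 13 of 21) and INHA (1.18 times, place 8) did not share this. L13 was also the highest boar for 10 of 21 detected other Sertoli genes, for 4 of 14 receptors and partners and for 2 of 7 FSH response genes. It was the lowest boar for 3 of 6 spermatid markers, PRM1, PRM2 and ODF1, with 465 CPM of PRM1 against 708 to 2310 CPM in the others. It was the highest for 0 of the 5 Leydig, 6 peritubular, 3 endothelial, 5 spermatocyte and 5 spermatogonia markers and for 1 of 4 macrophage markers. The part of these in the Sertoli gene levels of L13 was not tested. How often L13 was the highest boar among all genes is not given here, so these counts have no background. Some of its highest places were near ties. WT1 was 30.16 CPM against 30.13 CPM in D1, HHIP 6.32 against 6.29 CPM in L2, and DEFB119 134.5 against 132.3 CPM in L8.

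**Figure D4:**
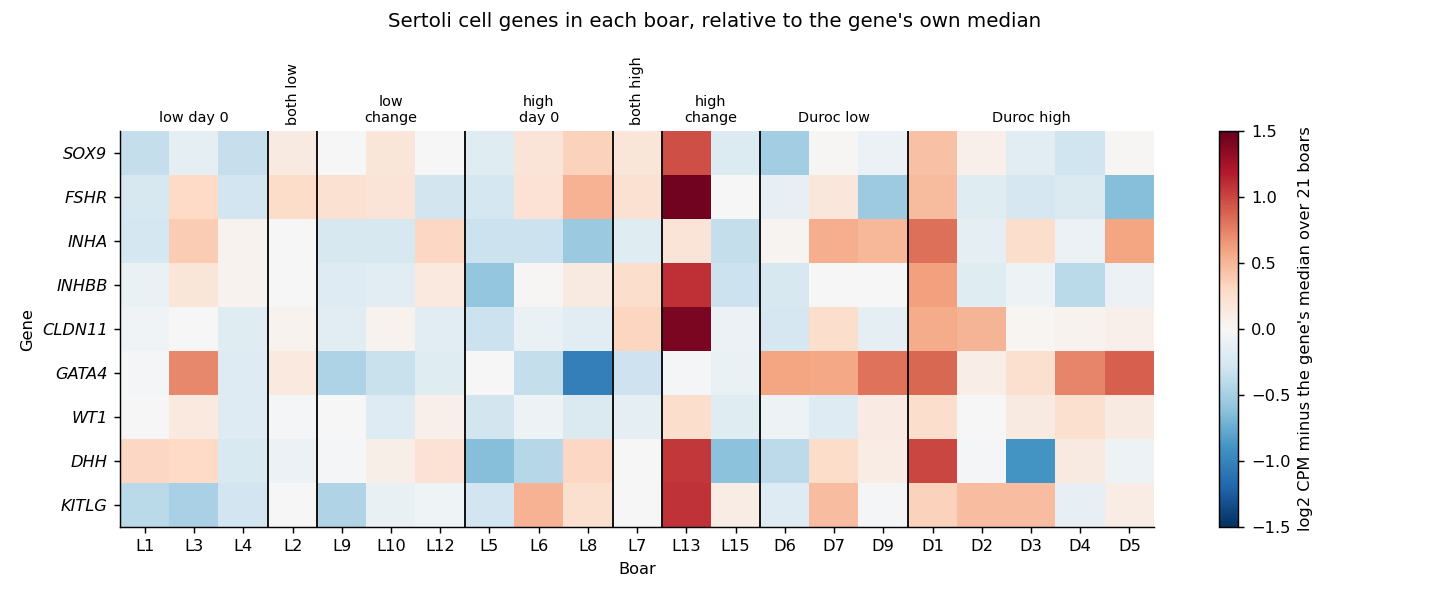
Log2 CPM of 9 Sertoli cell genes (rows) in each of the 21 boars (columns, by group), minus the median of the gene over all boars; red is higher and blue lower. L13 has the highest value of its row for 7 genes but not for GATA4 and INHA, and the GATA4 row is red in the Duroc columns, faintly in D2, and in L3.

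Contrast (ii), between Duroc boars described as high and low, gave no call. Of the 9 Sertoli genes 0 passed by edgeR, as for all 13043 genes, of which 0% were called higher and 0% lower, and the likelihood ratio test and DESeq2 called 0 as well. An unadjusted p under 0.05 was reached by 0 of 9, against 1.21% of all genes, and groups did not overlap for 0 of 9, against 1.38%. The log2 fold change was positive for 7 of 9, with a median of 0.12 beside 0.04 for all genes. CLDN11 had the largest, 0.29 ± 0.19 (SE, 95% confidence interval −0.13 to 0.71), with 140.6 ± 26.4 CPM (SD, n = 5) in the high and 115.1 ± 22.4 CPM (SD, n = 3) in the low boars. WT1 was above every low boar in 4 of 5 high boars (27.9 ± 2.05 against 24.3 ± 2.69 CPM, SD), with an exact permutation p of 0.0893, where 5 against 3 boars allow no p below 0.0179. GATA4, the gene that separated the breeds, was 23.0 ± 5.53 CPM in the high and 23.9 ± 2.21 CPM in the low Duroc boars (SD).

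The difference between the day 0 contrasts of the 2 breeds was tested as an interaction in 1 fit of 16 boars. That fit also took the Duroc groups from the deposited descriptions. Of the 9 Sertoli genes 0 passed by edgeR, as for all 12920 genes (0%), and 0 reached an unadjusted p under 0.05, against 15.1% of all genes. GATA4 had an interaction of 0.48 ± 0.36 (SE, edgeR adjusted p = 0.451) and WT1, with the smallest p, 0.33 ± 0.18 (SE, edgeR adjusted p = 0.345). The intervals were wide, from −0.77 to 1.39 for DHH, so differences between the breeds of that size were not detectable with these boars. Among the receptors and partners 0 passed, the smallest p being that of SMO (2.14, edgeR adjusted p = 0.329).

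Whether the Sertoli genes moved together from boar to boar was examined against SOX9 within each breed, on log2 CPM, as 16 relations with Benjamini-Hochberg adjustment over them. In Landrace FSHR followed SOX9 most closely, with Pearson's r = 0.916 (permutation p = 0.00021, adjusted 0.00336) and Spearman's rho = 0.681 (permutation p = 0.013, adjusted 0.0693). Without L1 and L13, the boars farthest from the median of SOX9, r was 0.732 (permutation p = 0.0115), so the relation did not rest on them alone. KITLG had r = 0.849 (permutation p = 0.00103, adjusted 0.00824) and rho = 0.687 (permutation p = 0.0113, adjusted 0.0693), and r = 0.582 (permutation p = 0.0612) without those boars.

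The relations of CLDN11 and INHBB with SOX9 in Landrace rested on those boars. CLDN11 had r = 0.808 (permutation p = 0.0106, adjusted 0.0339) but rho = 0.401 (permutation p = 0.177) and r = 0.407 without L1 and L13. INHBB had r = 0.768 (permutation p = 0.00886, adjusted 0.0339), rho = 0.478 (permutation p = 0.102) and r = 0.379 without them. For DHH, WT1, INHA and GATA4 the adjusted p of r was at least 0.0581. GATA4 was the 1 gene with a negative r, −0.254 (permutation p = 0.368) and −0.545 without those boars (permutation p = 0.0785).

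In Duroc, with 8 boars, CLDN11 had r = 0.852 (exact permutation p = 0.00585, adjusted 0.0312) and rho = 0.905 (exact permutation p = 0.00456, adjusted 0.0693), and r = 0.608 (exact permutation p = 0.196) without D1 and D6. The other 7 relations had an adjusted p of r of at least 0.0555. No rank correlation passed at 0.05 after adjustment over the 16 relations in either breed. All these genes were read from the same libraries, and a share of Sertoli RNA that differs between samples enters every one of them.

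**Figure D5:**
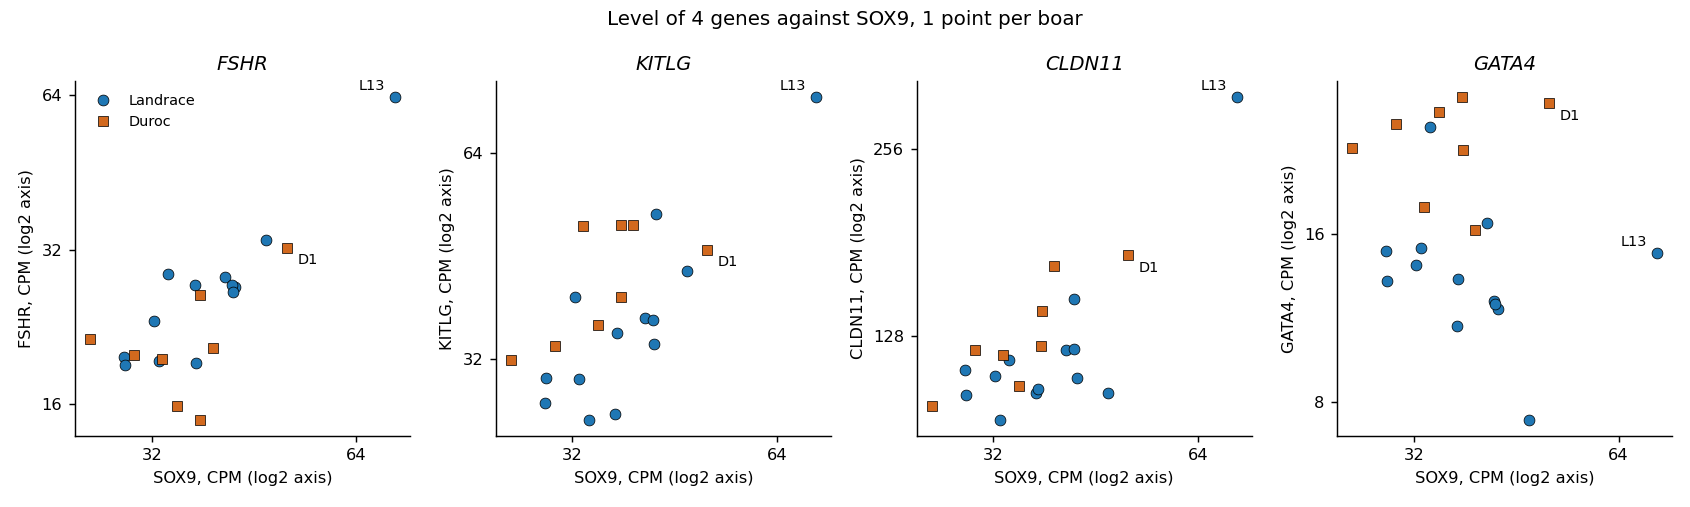
CPM of FSHR, KITLG, CLDN11 and GATA4 against CPM of SOX9, both on log2 axes, 1 point per boar (circles Landrace, squares Duroc), with L13 and D1 named. FSHR rises with SOX9 across the Landrace boars (r = 0.916), whereas GATA4 does not (r = −0.254) and the Duroc squares lie above most circles at like SOX9.

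Ratios of counts within a boar do not depend on library scaling, and 3 of them, chosen after the data had been seen, are given as a description. GATA4 over SOX9 had a median of 0.358 in Landrace (0.158 to 0.735) and 0.672 in Duroc (0.413 to 0.875). INHA over INHBB had a median of 0.351 in Landrace (0.194 to 0.431) and 0.454 in Duroc (0.373 to 0.576). KITLG over KIT had a median of 1.20 in Landrace (0.328 to 2.03) and 2.49 in Duroc (1.82 to 3.67). The ranges of the breeds overlapped in each ratio.

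The remaining Sertoli genes did not separate the breeds. Of 18 other tested Sertoli genes 0 passed between Duroc and Landrace, with a median log2 fold change of −0.04. The smallest p-values belonged to TF, the iron carrier transferrin (1.08, edgeR adjusted p = 0.0696), and CTSL, the protease cathepsin L (−0.88, edgeR adjusted p = 0.348). TF was high in D4 (8.52 CPM) and D2 (5.34 CPM), while the medians were 1.57 CPM in Duroc and 1.42 CPM in Landrace. Without D4 its log2 fold change was 0.64 (edgeR adjusted p = 0.334). Of 6 tested FSH response genes 0 passed, the smallest p-values being those of PDE4B (0.37, edgeR adjusted p = 0.353), a phosphodiesterase that breaks down the cAMP made on FSH signalling, and PRKAR2B (−0.34, edgeR adjusted p = 0.421), a regulatory subunit of protein kinase A.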

How the data were processed

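Testis RNA of 21 boars was sequenced by the authors as stranded mRNA libraries, trimmed with Trimmomatic 0.36 per the labels, aligned with STAR to the pig genome Sscrofa 11.1 and counted per Ensembl gene with HTSeq in reverse-stranded mode. What they deposited is the whole-number count of reads for each gene, not normalized. Rows that name no gene were left out, with no-feature reads at 21.47 to 30.25% and reads without a unique position at 5.83 to 8.28%. Each library holds 41358671 to 125576407 gene counts, and intervals and floors from them cover counting error only. Symbols came from RefSeq tables of assembly Sscrofa11.1 and a gene name table, which named 14857 of 25880 identifiers, and the positions printed are those of RefSeq. Reads of antisense genes are kept apart by the strand.

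Genes with at least 1 CPM in 4 libraries (8 for the breed and interaction fits) were tested over the whole table with edgeR 4.0.16 (TMM, quasi-likelihood F test, R 4.3.3), with Benjamini-Hochberg adjustment at 0.05. Confidence intervals are at 95%. Each contrast used its own boars, and the breed fit all 21, with no covariate. Single genes were compared by exact two-sided permutation tests of mean log2 CPM, and correlations by 100000 permutations in Landrace and exactly in Duroc (scipy 1.17.1). The boars are separate animals. Alternatives were DESeq2 1.42.0, the likelihood ratio test, RLE scaling, other filters, a robust fit, leaving out the 13 mitochondrially encoded genes, single boars or L2 with L7, and other sets of boars. The model was tested on simulated counts. The genes and lists were chosen with earlier results of these data known, so their counts are descriptions. All detected Sertoli genes are named; from other lists at most 3 genes that passed, with the largest fold changes, are named, or at most 2 with the smallest p-values where none passed, with exceptions stated. Of the lists' symbols, 7 matched no identifier in the tables and 1 identifier was not used here. One gene of the receptors and partners list is not reported here.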

Additional observations from a re-analysis of the deposited data

Results flagged for a closer look

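Boar D1 stood apart from the other Duroc boars by Dixon's test in 2 Sertoli genes. INHBB was 14.7 CPM in D1, against 7.2 to 9.06 CPM in the other 4 Duroc boars described as high and 7.2 to 9.56 CPM in the other 7 Duroc boars. DHH was 2.72 CPM in D1, against 0.728 to 1.65 CPM in the other 7. In each case the gap to the nearest boar was above the 95% critical value of Dixon's test. Such a gap is found by chance in about 1 of 20 groups, and among the 45 groups of 4 to 10 boars examined 3 were found where 2.25 would be expected by chance. The high levels of D1 were not limited to these genes. Over the boars of both breeds D1 was highest for INHA and at place 2 for SOX9, INHBB, CLDN11, GATA4, WT1 and DHH. It was at place 3 for FSHR and 6 for KITLG, with 1.21 (WT1) to 2.02 (DHH) times the median of the other boars. D1 belongs to the high group of contrast (ii) and to the breed fit.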

How the results depend on the processing

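Of 333 log2 fold changes of the Sertoli genes recomputed under another test, scaling, filter or set of boars, 316 kept their direction and their side of the threshold, 15 changed sign and 2 changed their call. The 2 were GATA4 between breeds in the low day 0 boars only (0.51) and in the high day 0 boars only (0.99), sets added after the data had been seen, where the Sertoli genes called fell from 1 to 0 and all genes called from 378 to 90 and 32; fewer boars were tested. In contrast (i) INHBB was −0.03, and 0.034 with no filter and 0.010 with filterByExpr, and CLDN11 was 0.01, and −8.001e-06 with all 13 Landrace boars in 1 fit and −0.16 without L2 and L7. In contrast (ii) FSHR was 0.02, and −0.017 by DESeq2, by RLE scaling and without mitochondrially encoded genes, and −0.032 with no filter. Between breeds DHH was 0.01, and −0.0034 by DESeq2, −0.00090 by RLE scaling, −0.013 with no filter, −0.0047 with filterByExpr and −0.0096 in the low day 0 boars, where SOX9 was 0.035, while INHBB was 0.033 in the high day 0 boars. The cause was not tested.

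All genes called in contrast (iii) were 0, and 64 by the likelihood ratio test, 116 by DESeq2 and 1 with no filter or filterByExpr. Those between breeds were 230 in the 16 day 0 boars with the group as covariate, and those of the interaction 3 by the likelihood ratio test. With 1 boar left out, all genes called ranged from 1 (without L3 or L6) to 3764 (without L5) in contrast (i), 0 to 1 in contrast (iii), 0 to 2 in contrast (ii), 268 to 491 between breeds and 0 to 1 for the interaction, and Sertoli genes called from 0 to 1, 0 to 0, 0 to 0, 1 to 1 and 0 to 0.

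Of 540 fold changes with 1 boar left out, 37 changed sign and 1 its call, KITLG in contrast (i) without L5. Those with a changed sign ranged, in contrast (i), from −0.15 to 0.13 (INHBB) and −0.15 to 0.10 (CLDN11); in contrast (iii), from −0.062 to 0.54 (SOX9), −0.22 to 0.064 (INHA), −0.040 to 0.18 (GATA4), −0.11 to 0.10 (WT1) and −0.30 to 0.56 (DHH); in contrast (ii), from −0.21 to 0.20 (FSHR), −0.22 to 0.060 (INHA), −0.14 to 0.18 (INHBB), −0.16 to 0.042 (GATA4) and −0.23 to 0.26 (DHH); between breeds, from −0.22 to 0.0045 (INHBB), −0.029 to 0.21 (CLDN11) and −0.17 to 0.12 (DHH); and for the interaction, from −0.27 to 0.047 (SOX9), −0.36 to 0.067 (FSHR) and −0.042 to 0.27 (INHBB). No paired analysis was possible because the replicate numbers only follow the order of the samples and link no boars across groups. Depth limits DHH most, at 52 to 240 counts per library.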
